A study of Rattus norvegicus with 9 samples.

Results

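The genes described here encode the protein side of the translation machinery: proteins of the large ribosomal subunit (symbols starting with Rpl), proteins of the small subunit (Rps, without the Rps6k kinases), initiation factors (Eif) and elongation factors (Eef). They were chosen by symbol alone among genes that a probe set of the array names singly, and 70 of 4736 such genes qualified: 30 Rpl, 14 Rps, 21 Eif and 5 Eef genes. Each gene was read at the brightest of its probe sets by the mean over the 9 arrays, and the 70 genes have 107 probe sets in all. By RefSeq, 68 of the genes are protein coding and 2, Rps2-ps1 and Rps4x-ps9, are pseudogenes.

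RNA was measured in primary sympathetic neurons from superior cervical ganglia of Holtzman rat embryos at day 21. All cultures were grown in serum-free C2 medium with nerve growth factor at 100 ng/ml and had been exposed to Ara-C, which kills dividing cells, for 48 hr. Control cultures stayed in medium alone for 24 hr, and the others received bone morphogenetic protein-7 (BMP-7), a TGF-beta family ligand that makes these neurons grow dendrites, at 50 ng/ml for 6 hr (BMP6h) or 24 hr (BMP24h). The 9 arrays hold no control kept for 6 hr, and by the study's methods RNA of the 3 conditions was taken at the same time. Each condition had 3 Affymetrix Rat Genome U34A arrays from independent dissections, each from neurons pooled across dishes. Replicate 1 of each condition was run in processing batch 1 and replicates 2 and 3 in batch 2. The labeled neuronal identity held on all arrays: the mean log2 value of 14 measured sympathetic neuron markers lay between 11.18 and 11.47, and tyrosine hydroxylase (Th), the first enzyme of noradrenaline synthesis, averaged 13.49 in the controls. The lists of other cell types were at lower mean log2 values. The 9 satellite glia and Schwann cell markers were at 6.81 to 7.04 and the 13 fibroblast and matrix markers at 9.18 to 9.59. Endothelial and mural markers were at 6.12 to 7.01, and macrophage and blood markers at 7.26 to 7.55. Some single markers of these lists were bright in the controls, such as Sparc (12.62), Mgp (12.07) and Pmp22 (12.03). The 13 fibroblast and matrix markers, however, summed to between 18221 and 19607 linear units in control and between 15410 and 16785 in BMP24h. That sum weighs the brightest genes most, such as Sparc and Mgp. At 24 hr 8 of the 13 were lower than control (median log2 difference -0.18), while others such as Acta2 (0.32) and Fn1 (0.15) were higher. The study's thresholds were passed at 24 hr by 4 of these 13, by 1 of 14 neuron markers and by 1 of 5 endothelial and mural markers, beside 3.82% of all genes. The part of this shift in the values below was not tested. One array, BMP6h replicate 2, stood apart: 8.91% of all genes there differed by over 1 log2 unit from the average of BMP6h replicates 1 and 3. Of the 70 genes, only Eif2b5 differed by that much.

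The ribosome reads mRNA into protein. Initiation factors bring the mRNA cap, the initiator tRNA and the small subunit together, the large subunit then joins, and elongation factors deliver aminoacyl-tRNAs and move the ribosome along. The mRNAs for ribosomal proteins and several elongation factors are known for a run of pyrimidines at their start (the 5′ terminal oligopyrimidine tract), through which the mTOR pathway controls their translation. Growing neurons make protein in the cell body and in dendrites. An array measures the amount of these mRNAs and not how often they are translated.

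The stretch around the annotated start of each gene was read for runs of this kind. A window of 15 bases on each side of the RefSeq start (GRCr8 build) was searched on the transcribed strand for a run of at least 8 bases that are all C or T. A promoter entry was found for 63 of the 70 genes. The run was present in 16 of 27 Rpl genes (59.3%), 6 of 11 Rps genes (54.5%), 4 of 20 Eif genes (20.0%) and 1 of 5 Eef genes (20.0%), against 3831 of 33469 windows of all RefSeq promoters (11.4%). The windows below are printed 5′ to 3′ with the longest C/T run in capitals. The first 6 hold a run of at least 8 bases and the last 3, shown for contrast, do not. A match describes these letters only. The run was not required to begin at the first base of the mRNA, and a run at a window edge may be cut short. A gene without a match may therefore still carry the tract.

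Rplp0, chr12:46718376-46718405, minus strand: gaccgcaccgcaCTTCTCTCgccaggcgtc
Rpl31, chr9:49143096-49143125, plus strand: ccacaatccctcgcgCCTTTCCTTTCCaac
Rpl35, chr3:43165907-43165936, minus strand: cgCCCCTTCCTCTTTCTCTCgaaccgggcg
Rps15, chr7:10068101-10068130, minus strand: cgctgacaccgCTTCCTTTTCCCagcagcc
Rps23, chr2:23814502-23814531, plus strand: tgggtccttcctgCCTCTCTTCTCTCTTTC
Eef1a1, chr8:88225055-88225084, minus strand: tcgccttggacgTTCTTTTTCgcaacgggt
Eef1a2, chr3:188652619-188652648, minus strand: cgctcgggtacaTCTCTgcagctgcgtcct
Eif4e, chr2:229740738-229740767, plus strand: agcggttgtgcgatcagatcgaTCTaagat
Eif2ak3, chr4:104363857-104363886, plus strand: tgcagagcagacacacggaaCCCTCgctca

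With condition and batch as terms over the 9 arrays, none of the 70 genes passed a test after BMP-7, and most had intervals within a 1.5-fold change. Other fits called up to 4 of the 70 in a comparison, at the study's thresholds; 1 of them, Rps4x-ps9, passed after adjustment, in a fit with array weights added after seeing the data. In BMP6h against control, 0 of 70 passed an adjusted p under 0.05 (limma, Benjamini-Hochberg over 8740 probe sets), 0 passed the study's thresholds (unadjusted p under 0.05 and a change of 1.2-fold or more) and 0 had an unadjusted p under 0.05. Over all 4736 genes the same comparison called 0.0422% after adjustment, 1.79% at the study's thresholds and 1.79% at an unadjusted p under 0.05. In BMP24h against control the counts were again 0 of 70 by all of these rules, beside 0.211%, 3.82% and 3.86% of all genes. In BMP24h against BMP6h they were 0 of 70, beside 0%, 3.21% and 3.29%. The F-test across the 3 conditions also called 0 of 70, beside 0.148% of all genes after adjustment and 0.929% at an unadjusted p under 0.005. The lowest F-test p among the 70 was 0.2165 (limma, adjusted p = 0.9505), for Eif2ak3. An ordinary two-way analysis of variance without moderation called 0 of 70 at the study's thresholds in all 3 comparisons and the F-test. Without BMP6h replicate 2 the counts at the study's thresholds were also 0 of 70 in the 3 comparisons, while the replicate block, averaged probe sets and the loss of control replicate 3, BMP24h replicate 1 or BMP24h replicate 2 each gave 1 in at least 1 comparison. For alternative fits that called none of the 70, the share over all genes was not worked out, so their counts of 0 have nothing to stand beside. A missed threshold does not show that the values were the same. In bulk RNA, fewer cells of a type and less RNA per cell cannot be told apart.

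The differences were small in both directions. The median log2 difference over the 70 genes was 0.0005 in BMP6h against control, with 35 genes higher and 35 lower, beside -0.03 over all genes. It was 0.01 in BMP24h against control, with 42 higher and 28 lower, beside 0.01 over all genes. It was -0.01 in BMP24h against BMP6h, with 33 higher and 37 lower, beside 0.03. Single genes ranged from -0.49 to 0.38 at 6 hr and from -0.30 to 0.36 at 24 hr, and 63 and 64 of the 70 lay within 0.2 log2 units of control.

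The 95% confidence intervals give the size of difference that the spread between arrays could have hidden in the normalized values. They do not cover a difference that the normalization itself removed. The whole interval lay within a 1.5-fold change for 62 of 70 genes (88.6%) at 6 hr, 60 (85.7%) at 24 hr and 64 (91.4%) between the times, against 53.8%, 56.1% and 53.3% of all genes. It lay within a 2-fold change for 69 of 70 genes in each comparison, and the exception was Eif2b5. The median standard error was 0.13 for the 70 genes and 0.17 for all genes. The genes were also among the brighter probe sets, with a median log2 value of 10.68 against 7.08 over all genes, and their median pooled SD between replicates was 0.12 against 0.20. These values move together, and the part of brightness in the narrower intervals was not tested.

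**Figure D1:**
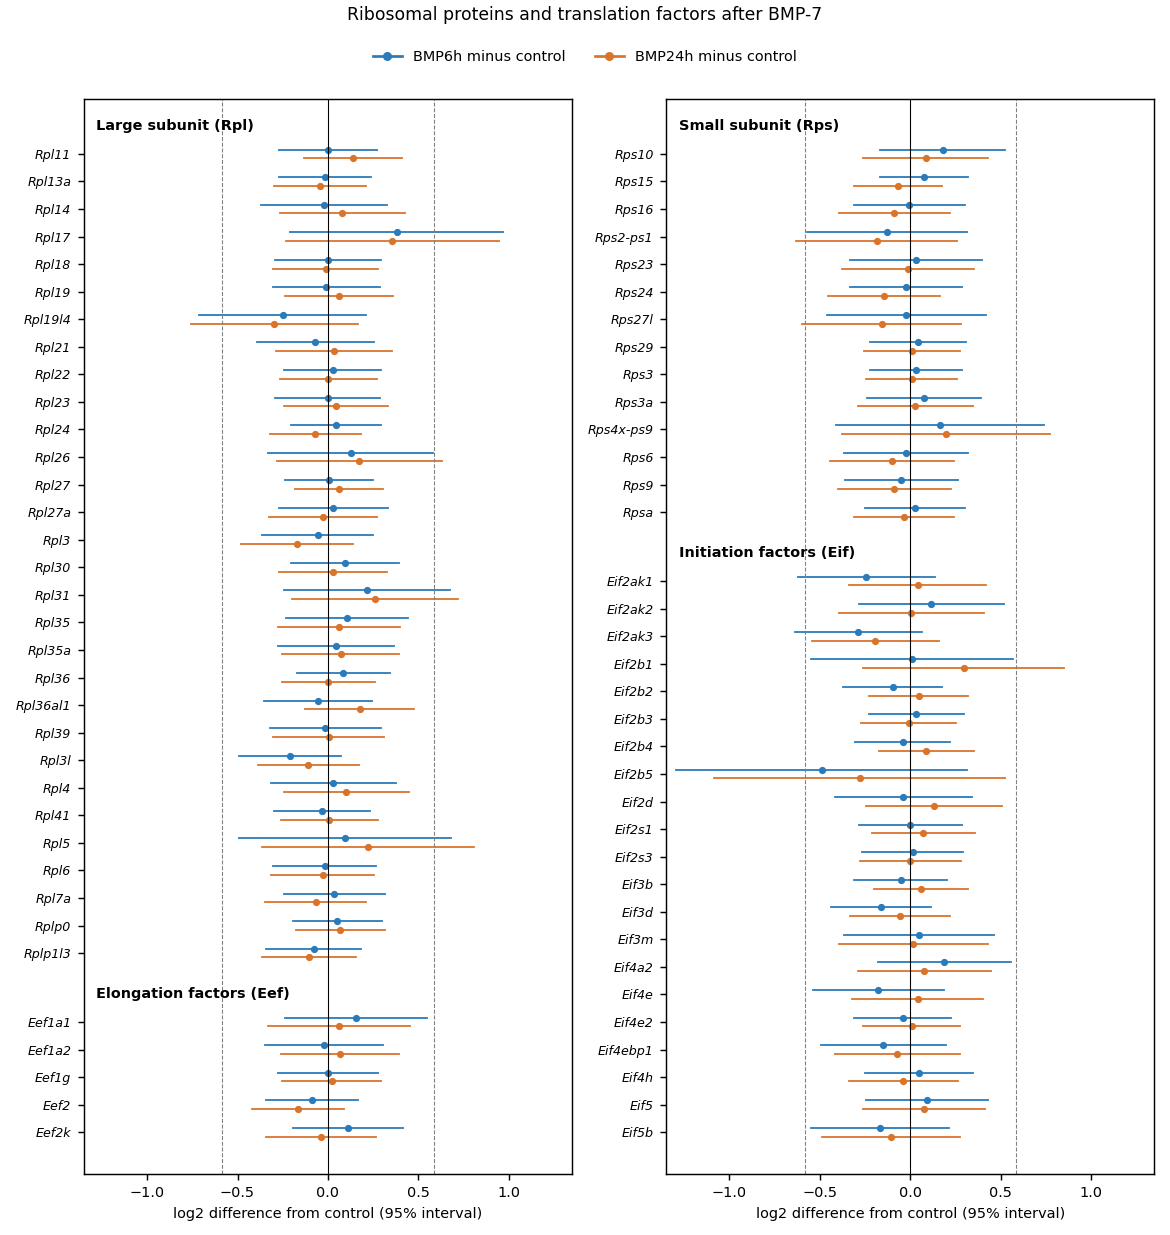
Log2 difference from control at 6 hr (blue) and 24 hr (orange) for each of the 70 genes, by class, with points at the limma estimate and bars as 95% confidence intervals; dashed lines mark a 1.5-fold change in either direction (0.585 on the log2 scale). Every interval includes 0, and the widest belong to Eif2b5, Rpl17, Rpl5 and Rps4x-ps9.

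Ribosomal proteins of the large subunit gave a median log2 difference of 0.004 at 6 hr and 0.03 at 24 hr over 30 genes. Rplp0, the stalk protein often used as a reference gene, read 12.44, 12.38 and 12.35 in control replicates 1 to 3, 12.41, 12.38 and 12.53 in BMP6h, and 12.45, 12.46 and 12.46 in BMP24h. Its BMP24h arrays all lay above the control arrays, by a log2 difference of 0.07 (SE 0.11; limma, unadjusted p = 0.5373, adjusted p = 1). The 3 BMP24h arrays lay wholly above the 3 controls for 2 of the 70 genes and wholly below for 4, beside 5.95% and 7.69% of all genes. In BMP6h against control the counts were 1 above and 4 below, beside 3.12% and 7.37%, and in BMP24h against BMP6h they were 4 above and 3 below, beside 6.12% and 4.27%. Rpl3, which lies near the peptidyl transferase centre, read 12.21, 11.89 and 12.11 in control, 11.89, 12.14 and 12.01 in BMP6h and 11.88, 11.97 and 11.84 in BMP24h. BMP24h replicate 2 lay among the controls and the other 2 arrays just below them, and the log2 difference was -0.17 (95% interval -0.48 to 0.14).

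Rpl5 and Rpl11, which bind the 5S rRNA and can hold Mdm2 when ribosome assembly is disturbed, were measured with unequal precision. Rpl11 read 11.89, 11.72 and 11.92 in control, 11.88, 11.78 and 11.88 in BMP6h, and 11.91, 11.98 and 12.06 in BMP24h. The control and BMP6h arrays overlapped, while the BMP24h arrays lay above all BMP6h arrays by a log2 difference of 0.13 (SE 0.12; limma, unadjusted p = 0.2813, adjusted p = 0.9394). Its second probe set had the opposite sign at 24 hr. Rpl5 was dim, at 5.19, 5.41 and 4.50 in control, 5.11, 4.86 and 5.40 in BMP6h and 5.11, 5.30 and 5.36 in BMP24h. Control replicate 3 was the lowest of the 9, and the 24 hr difference of 0.22 (95% interval -0.37 to 0.81) was -0.07 without it. Rpl13a, part of the GAIT complex that silences some mRNAs, differed by -0.02 at 6 hr and -0.04 at 24 hr (SE 0.11).

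The largest positive difference among the 70 genes, that of Rpl17, depended on how single arrays were weighted. Rpl17, which lines the exit of the peptide tunnel, read 6.89, 7.58 and 7.73 in control, 8.00, 7.59 and 7.74 in BMP6h and 8.04, 7.53 and 7.69 in BMP24h. Its log2 difference of 0.38 at 6 hr (SE 0.25; limma, unadjusted p = 0.1738, adjusted p = 0.8873) was 1.12 between the batch 1 arrays and 0.01 between the batch 2 arrays, and it was -0.004 without control replicate 1. At 24 hr the value was 0.36, with 1.16 in batch 1 and -0.04 in batch 2. With array weights, which are highest for the batch 1 array of each condition, it was 0.71 at 6 hr (limma, unadjusted p = 0.007435, adjusted p = 0.482) and 0.81 at 24 hr (limma, unadjusted p = 0.002384, adjusted p = 0.06277), past the study's thresholds. Rpl31, another protein of the tunnel exit, read 11.69, 12.21 and 12.24 in control, 12.35, 12.17 and 12.28 in BMP6h and 12.59, 12.09 and 12.25 in BMP24h. Its log2 difference of 0.26 at 24 hr was 0.90 in batch 1, -0.06 in batch 2, -0.01 without control replicate 1 and 0.63 with array weights (limma, unadjusted p = 0.002342, adjusted p = 0.06245). For both genes control replicate 1 was the lowest of the 9 arrays, and replicate 1 of BMP6h and of BMP24h were the highest. The batch 2 arrays of the 3 conditions overlapped. Batch removal set the 2 batch means level, so a low control and high treated arrays in batch 1 cannot be told apart. The fit without control replicate 1 keeps the batch term, so its value follows the batch 2 arrays and adds little to them.

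Rpl19l4 and Rpl36al1, both named in the annotation as copies of ribosomal protein genes, stood out in the other direction or at 1 time. Rpl19l4 read 9.48, 9.96 and 9.53 in control, 9.27, 9.39 and 9.56 in BMP6h and 9.67, 9.12 and 9.29 in BMP24h. Its 24 hr difference was -0.30 (SE 0.20), with 0.19 in batch 1 and -0.54 in batch 2. Without BMP24h replicate 1, a fit whose value again follows batch 2, it was -0.53. That was past the study's thresholds (limma, unadjusted p = 0.02606, adjusted p = 1), as were 2.28% of all genes in that fit. With array weights it was -0.02. Rpl36al1 read 9.63, 9.48 and 9.71 in control, 9.53, 9.41 and 9.72 in BMP6h and 9.77, 9.74 and 9.82 in BMP24h. All of its BMP24h arrays were the highest of the 9, and the difference from BMP6h was 0.23 (SE 0.13; limma, unadjusted p = 0.1154, adjusted p = 0.9394), the lowest p of the 70 genes in that comparison. A probe set for a gene with near-identical copies may read more than 1 of them.

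Rpl3l, the paralog of Rpl3 known from striated muscle, was lower at 6 hr in both of its probe sets. The brightest read 7.84, 7.68 and 7.82 in control and 7.54, 7.60 and 7.58 in BMP6h, without overlap, a log2 difference of -0.21 (SE 0.12; limma, unadjusted p = 0.1213, adjusted p = 0.8873). BMP24h, at 7.65, 7.82 and 7.55, overlapped both. The dimmer probe set differed by -0.39 at 6 hr (SE 0.15; limma, unadjusted p = 0.03154, adjusted p = 0.8873) and was the only 1 of the 107 probe sets past the study's thresholds in any of the 3 comparisons. Of all genes, read at 1 probe set each, 1.79% passed at 6 hr, 3.82% at 24 hr and 3.21% between the times. With the mean of both probe sets Rpl3l also passed these thresholds, at -0.30 (limma, unadjusted p = 0.04307, adjusted p = 0.8658), as did 1.69% of all genes in that fit. Rpl24, which joins the subunits by a bridge, had BMP24h values (11.74, 11.70 and 11.67) below its BMP6h values (11.75, 11.90 and 11.80), by -0.11 (SE 0.11).

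**Figure D2:**
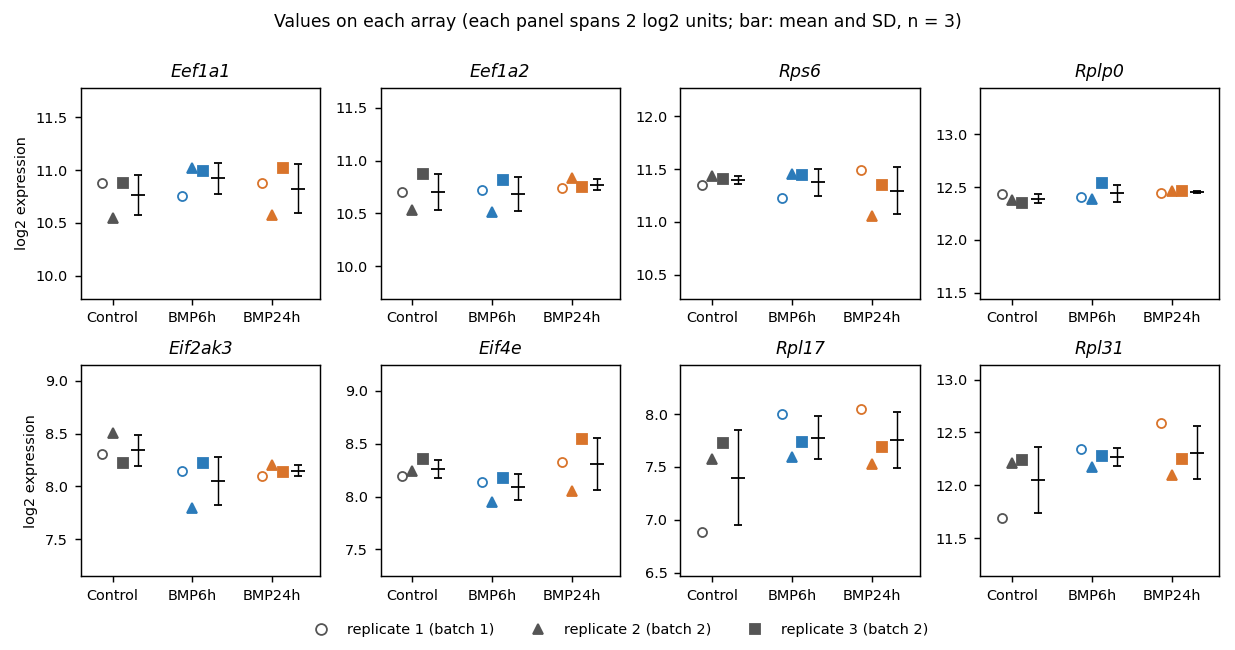
Log2 expression on each of the 9 arrays for 8 genes, with the mean and SD of each condition (n = 3) beside the points; open circles are batch 1 and filled symbols batch 2. Rpl17 and Rpl31 are lowest on control replicate 1 and highest on replicate 1 of BMP6h and of BMP24h, while Rplp0 stays between 12.35 and 12.53 on every array.

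Ribosomal proteins of the small subunit gave a median log2 difference of 0.03 at 6 hr and -0.05 at 24 hr over 14 genes, and 13 of the 14 had lower values in BMP24h than in BMP6h, with a median of -0.06. The count varied with the arrays used. On BMP24h replicate 2 the median Rps value was 0.18 log2 units below its control mean (-0.18), and all 14 genes lay below their 9-array mean there. BMP24h replicates 1 and 3 were at 0.08 and 0.01. Without BMP24h replicate 2 the median was 0.03 and 4 of 14 genes were lower than in BMP6h, and with array weights it was 0.06 and 3 of 14. With that array kept, 9 of 14 were lower without BMP6h replicate 2 (median -0.03), 8 of 14 after repeated quantile normalization (-0.02) and 14 of 14 on the batch 2 arrays alone (-0.18). The same array had the lowest Actb and Gapdh 3′ values of the 9, at 13.09 and 12.77, and the highest 5S rRNA value, at 7.55; the part of these in the Rps values was not tested.

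Rps6, the substrate of the S6 kinases, followed that array: it read 11.35, 11.44 and 11.41 in control, 11.23, 11.45 and 11.45 in BMP6h and 11.49, 11.05 and 11.35 in BMP24h. The conditions overlapped, and the log2 difference from control was -0.02 at 6 hr and -0.10 at 24 hr (SE 0.15), while its second probe set had the opposite sign, at 0.08 and 0.04. Rpsa, which doubles as a laminin receptor, differed by 0.03 and -0.03 (SE 0.12). Rps15, at the subunit interface, read 11.50, 11.44 and 11.44 in control, 11.47, 11.58 and 11.56 in BMP6h and 11.42, 11.39 and 11.36 in BMP24h. All BMP24h arrays were below the other 6, by -0.15 from BMP6h (SE 0.10; limma, unadjusted p = 0.2039, adjusted p = 0.9394), while its other 2 probe sets were above control at 24 hr. Rps24 and Rps27l differed between the times by -0.12 and -0.14, and both were lowest on BMP24h replicate 2, at 8.18 and 9.24. Rps10 was higher at 6 hr by 0.18 (SE 0.15).

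The pseudogene Rps4x-ps9 read 9.14, 9.03 and 9.88 in control, 9.51, 9.43 and 9.60 in BMP6h and 9.76, 9.24 and 9.64 in BMP24h. Control replicate 3 was the highest of the 9 arrays and the other 2 controls the lowest, so the differences of 0.16 and 0.20 became 0.45 and 0.49 without that array, past the study's thresholds (limma, unadjusted p = 0.03545 and 0.02744, adjusted p = 0.9942 and 1), beside 0.908% and 2.93% of all genes. With array weights they were 0.41 and 0.57, and the 24 hr difference passed the adjusted test (limma, adjusted p = 0.03477), as did 3.63% of all genes in that fit. Rps2-ps1, the other pseudogene, had probe sets of opposite sign at 6 hr, at -0.13 and 0.28, the widest gap between probe sets of 1 gene (0.41).

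**Figure D3:**
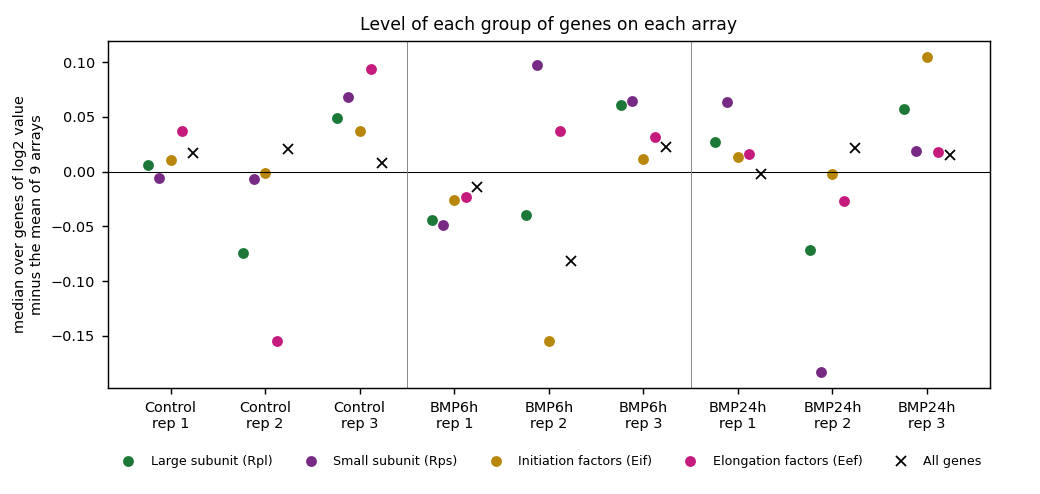
Median over the genes of each class of the log2 value minus its 9-array mean, on each array, for 30 Rpl, 14 Rps, 21 Eif and 5 Eef genes and for all 4736 genes (crosses). The Rps median on BMP24h replicate 2 (-0.18) is the lowest point, and the 3 arrays of BMP24h spread on both sides of 0 for the Rps genes.

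Among the factors that start translation, the cap-binding group came first. Eif4e, which holds the mRNA cap, read 8.19, 8.24 and 8.36 in control, 8.14, 7.95 and 8.18 in BMP6h and 8.32, 8.05 and 8.54 in BMP24h. The BMP6h arrays all lay below the controls, by -0.18 (SE 0.16; limma, unadjusted p = 0.2928, adjusted p = 0.8873), while BMP24h overlapped both. Without BMP24h replicate 2 its difference between the times was 0.36, past the study's thresholds (limma, unadjusted p = 0.04189, adjusted p = 0.9923), as were 2.55% of all genes in that fit. Eif4ebp1, which holds Eif4e away from the ribosome until mTOR phosphorylates it, was read by 3 probe sets. The brightest gave -0.15 at 6 hr and -0.07 at 24 hr, and the other 2 gave -0.06 and 0.04 at 6 hr and -0.24 and -0.14 at 24 hr, all with p above the thresholds. Eif4a2, a helicase that unwinds mRNA leaders, read 10.83, 10.62 and 10.91 in control and 10.95, 11.02 and 10.95 in BMP6h, without overlap, a log2 difference of 0.19 (SE 0.16; limma, unadjusted p = 0.2717, adjusted p = 0.8873). BMP24h, at 10.85, 10.62 and 11.12, overlapped both. Eif4h, which stimulates that helicase, gave 0.05 and -0.04 at its brightest probe set and down to -0.34 at 24 hr at its dimmest.

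Eif2 brings the initiator tRNA, Eif2b recharges it with GTP, and the Eif2ak kinases shut this step down under stress. Eif2s1, the subunit those kinases phosphorylate, read 9.56, 9.54 and 9.51 in control, 9.54, 9.51 and 9.55 in BMP6h and 9.57, 9.45 and 9.79 in BMP24h, with differences of -0.0009 and 0.07 (SE 0.12). Its partner Eif2s3 differed by 0.01 and 0.001. Of the 5 Eif2b subunits, Eif2b2, Eif2b3 and Eif2b4 lay within 0.1 log2 units of control at both times, although the other 2 probe sets of Eif2b3 gave -0.27 and -0.22 at 6 hr and -0.12 and -0.24 at 24 hr. Eif2b1 read 7.56, 7.79 and 7.04 in control, 7.40, 7.18 and 7.83 in BMP6h and 7.73, 7.64 and 7.90 in BMP24h. Its difference of 0.29 at 24 hr (95% interval -0.26 to 0.85) was present at both probe sets, and it was 0.06 without control replicate 3, the lowest array.

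Eif2b5, the catalytic subunit, had the largest difference and the widest interval of the 70 genes. It read 6.34, 6.49 and 7.00 in control, 6.32, 5.42 and 6.61 in BMP6h and 6.40, 5.94 and 6.65 in BMP24h. The low point was BMP6h replicate 2, the array that stood apart. The log2 difference at 6 hr was -0.49 (SE 0.35, 95% interval -1.29 to 0.31), with -0.02 in batch 1 and -0.73 in batch 2, and it was -0.11 without that array and -0.01 with array weights. When the fit took the replicate number as a block and not the batch, it was the 1 gene of 70 past the study's thresholds at 6 hr (limma, unadjusted p = 0.0433, adjusted p = 0.7577), beside 4.58% of all genes in that fit.

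Of the kinases, Eif2ak3 (PERK), the sensor of unfolded protein in the endoplasmic reticulum, had the lowest p of the 70 genes at 6 hr. It read 8.30, 8.50 and 8.22 in control, 8.14, 7.80 and 8.23 in BMP6h and 8.10, 8.21 and 8.14 in BMP24h. The BMP24h arrays all lay just below the controls and 1 BMP6h array lay among them. The log2 difference was -0.29 at 6 hr (SE 0.15; limma, unadjusted p = 0.09537, adjusted p = 0.8873) and -0.19 at 24 hr (SE 0.15), and the 6 hr value was -0.15 without BMP6h replicate 2. Both probe sets were lower at both times. Eif2ak1, the heme-regulated kinase, was dim and read 5.05, 5.16 and 5.03 in control, 4.99, 4.52 and 5.00 in BMP6h and 5.00, 5.25 and 5.11 in BMP24h. Its BMP6h arrays lay below the controls, furthest on replicate 2, and the difference was -0.24 (SE 0.16), or -0.07 without that array. Eif2ak2 (PKR), the kinase that senses double-stranded RNA, gave 0.12 and 0.01 (SE 0.17).

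Of the subunits of Eif3, the scaffold on the small subunit, Eif3b gave -0.05 and 0.06, Eif3m 0.05 and 0.02, and Eif3d -0.16 and -0.06. Eif3d, which can itself bind some mRNA caps, read 9.47, 9.52 and 9.57 in control and 9.42, 9.19 and 9.46 in BMP6h without overlap, but its difference was -0.07 without BMP6h replicate 2. Eif5, the GTPase activator of Eif2, gave 0.09 and 0.08 (SE 0.15).

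Elongation factors gave differences between -0.16 and 0.16 over both times. Eef1a1 and Eef1a2 deliver aminoacyl-tRNA, and the second is the form of mature neurons and muscle. Eef1a1 read 10.87, 10.55 and 10.88 in control, 10.76, 11.02 and 10.99 in BMP6h and 10.88, 10.58 and 11.02 in BMP24h. Eef1a2 read 10.71, 10.53 and 10.87 in control, 10.72, 10.51 and 10.82 in BMP6h and 10.74, 10.83 and 10.75 in BMP24h. The conditions overlapped for both genes. The log2 difference of Eef1a1 was 0.16 at 6 hr and 0.06 at 24 hr (SE 0.17), and that of Eef1a2 was -0.02 and 0.07 (SE 0.14). Eef1g, a subunit of the exchange factor for Eef1a, gave -0.0002 and 0.02 (SE 0.12).

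Eef2, the translocase, read 12.65, 12.58 and 12.72 in control, 12.54, 12.60 and 12.54 in BMP6h and 12.50, 12.55 and 12.40 in BMP24h. All BMP24h arrays lay below the controls, by -0.16 (SE 0.11; limma, unadjusted p = 0.1763, adjusted p = 1). Its other 3 probe sets did not share this: at 24 hr they gave 0.11, -0.02 and -0.06, and at 6 hr 0.27, 0.24 and 0.15 where the brightest gave -0.09. Eef2k, the calcium-dependent kinase that stops Eef2, read 8.12, 7.96 and 8.18 in control, 8.11, 8.38 and 8.10 in BMP6h and 8.10, 8.05 and 7.99 in BMP24h. The BMP24h arrays lay just below the lowest BMP6h array, and the difference was -0.15 (SE 0.13; limma, unadjusted p = 0.2795, adjusted p = 0.9394).

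Probe sets of 1 gene served as a second reading. Of the 29 genes with more than 1 probe set, 11 had probe sets of opposite sign at 6 hr, 10 at 24 hr and 10 between the times. No gene had probe sets more than 0.5 log2 units apart, and the median gap was 0.07 at 6 hr and 0.08 at 24 hr. A further 45 probe sets name several genes with at least 1 Rpl, Rps, Eif or Eef symbol among them. Of these, 0 of the 45 passed the study's thresholds in the 3 comparisons, beside 1.79%, 3.82% and 3.21% of all genes read at 1 probe set each.

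**Figure D4:**
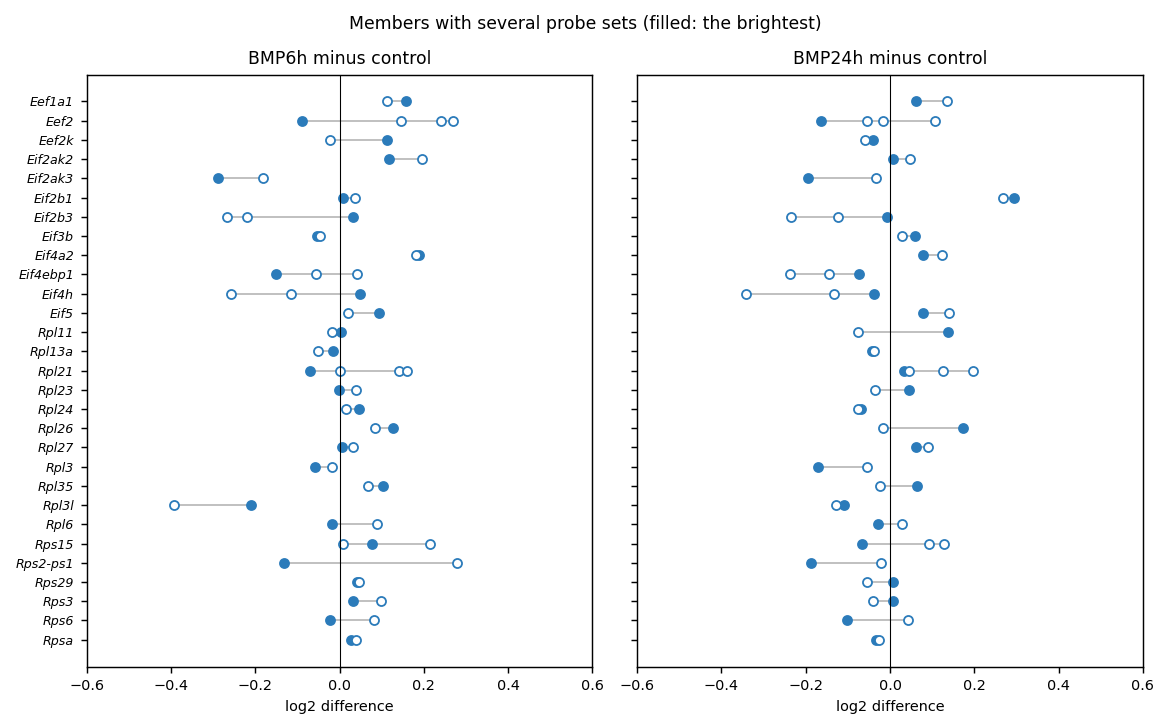
Log2 difference from control at 6 hr (left) and 24 hr (right) for the 29 genes with several probe sets; each circle is a probe set, filled for the brightest, and a line joins the probe sets of a gene. The widest gaps are those of Rps2-ps1 at 6 hr (0.41) and Eif4h at 24 hr (0.30).

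The values were also set beside the C/T run in the windows at the gene starts. Over Rpl and Rps genes the median log2 difference at 6 hr was 0.03 with a matching run (22 genes) and -0.01 without (16 genes). At 24 hr the medians were 0.05 and -0.03. These are descriptions of small sets and were not tested. Across the 9 arrays the median correlation between pairs of genes was 0.50 for Rps genes (91 pairs), 0.14 for Rpl genes (435 pairs) and 0.15 over all pairs of the 70, values that share arrays and processing.

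Other genes of translation were read from lists. Over 48 measured genes of 6 lists (release and poly(A)-binding factors, ribosome-bound proteins, kinases and their regulators, tRNA synthetases, nucleolus and ribosome assembly, mitochondrial ribosome), 0 passed the study's thresholds at 6 hr, 1 at 24 hr and 0 between the times. The shares over all genes were 1.79%, 3.82% and 3.21%. After adjustment 0 of the 48 passed, beside 0.0422%, 0.211% and 0% of all genes. The 1 gene was Mrps11, a protein of the small mitochondrial subunit, which passed at 24 hr by the study's thresholds alone, with a log2 difference of 0.34 (SE 0.15; limma, unadjusted p = 0.04851, adjusted p = 1). Mrps11 was nearly as high at 6 hr, at 0.32 (limma, unadjusted p = 0.06283, adjusted p = 0.8873), and differed by 0.02 between the times. The 16 genes of the mitochondrial ribosome list had a median of -0.04 at 6 hr, with 4 higher and 12 lower, and of 0.05 at 24 hr, with 12 higher and 4 lower; 42.7% and 52.2% of all genes were higher at these times. Of the 9 kinases and regulators, 8 had lower values at 6 hr (median -0.11), when the median of all genes was -0.03 and that of BMP6h replicate 2 lay at -0.09 from control. At 24 hr 7 of the 9 were lower and 2 higher (median -0.09), when the median of all genes was 0.01. Mtor was at -0.11 at 6 hr and -0.25 at 24 hr (SE 0.17). Tsc2, which restrains it, was at -0.32 and -0.21 (SE 0.22). These shifts were not tested as a set.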

How the data were processed

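RNA of 9 samples was measured on Affymetrix Rat Genome U34A arrays. The authors deposited log2 expression values, made with RMA in Partek Genomics Suite and with the batch difference removed; for any probe set the 2 batches now have means within 6.7e-05 of each other. Values ran from 2.69 to 14.38, and no 2 arrays were identical. An array has no read depth, so the number of arrays limits the precision.

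Of 8799 probe sets, 59 controls were left out. The limma fit (version 3.58.1, R 4.3.3) had condition and batch in its design, with 5 residual and 7.68 total degrees of freedom, and p-values were adjusted by Benjamini-Hochberg over 8740 probe sets. The fit was tested on simulated data.

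Gene names came from the platform annotation (7006 probe sets with 1 gene, 308 with several, 1426 with none). Genes were named in the text by role or as the 5 largest differences a direction and comparison (41 genes); Eif4h, Eif2d, Rps23 and Rpl35 fall outside this rule and were picked with their values known. The members and lists were chosen with earlier results of these data known. The alternatives are given in the closing section. Figures were drawn with matplotlib 3.10.9.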

Additional observations from a re-analysis of the deposited data

How the results depend on the processing

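No member passed an adjusted p under 0.05 in the alternatives of this paragraph. Counts at the study's thresholds stayed at 0 of 70 with no batch term, batch 2 alone, the compared conditions alone, dim probe sets left out (67 members), repeated quantile normalization, median centring, an intensity trend, unmoderated analysis of variance and a fold change of at least 1.5. The share of all genes called was not worked out for these fits, and some may call few genes of any kind. The exceptions at 6 hr were 1 with each gene's probe sets averaged (Rpl3l, beside 1.69% of all genes) and 1 with the replicate block (Eif2b5, beside 4.58%). Leaving out each array gave 0 to 1 at 6 hr (Rps4x-ps9 without control replicate 3, beside 0.908% of all genes), 0 to 1 at 24 hr (Rps4x-ps9 without control replicate 3, beside 2.93%, and Rpl19l4 without BMP24h replicate 1, beside 2.28%), 0 to 1 between the times (Eif4e without BMP24h replicate 2, beside 2.55%) and 0 in the F-test. Over the fits that leave out 1 array, the members' median lay between -0.02 and 0.05 at 6 hr, -0.04 and 0.05 at 24 hr and -0.0344 and 0.0577 between the times, where 0.0577 came without BMP24h replicate 2.

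Per the study's methods, each experiment took its 3 conditions from 1 dissection, though no label says that a replicate number marks a dissection. Batch removal forces the replicate 1 arrays to deviate against each other (correlations of -0.74, -0.50 and -0.21), so those cannot decide whether the numbers pair the arrays. In batch 2, BMP6h with BMP24h gave 0.23 and 0.53 for matching numbers and -0.50 and -0.28 for crossed ones. Treated with control arrays of batch 2 gave -0.083 to 0.075 for matching numbers and -0.22 to 0.16 for crossed ones. These values did not settle the pairing. The replicate block gave 1 member at 6 hr and changed no other count.

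Added after seeing the data, array weights (0.093 for BMP6h replicate 2 to 5.76 for BMP24h replicate 1) gave 3 members at 6 hr (Rpl17, Rpl31, Rps4x-ps9), 4 at 24 hr (those and Eif2d; Rps4x-ps9 with adjusted p = 0.03477 in limma, beside 3.63% of all genes past the adjusted test) and 1 in the F-test (Rps4x-ps9), beside 3.53%, 9.44% and 5.09% of all genes. Batch 1 arrays alone gave medians of -0.0615 at 6 hr and 0.0602 between the times. Over the named genes and 20 settings, 12 values came past the study's thresholds. Of the values that did not, 49 moved by more than the spread between replicates and 2393 stayed within it. The causes were not tested.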
